A study of Homo sapiens with 12 samples.

Results

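Cyclopiazonic acid (CPA) was compared with no treatment in HSC-3, an established human oral squamous carcinoma cell line, over 8 of the 12 RNA-seq libraries of the series. The CPA libraries came from 4 samples of cells given 25 µM CPA for 3 hours, and the untreated libraries from 4 samples of the same line without CPA. No synta-66, the ORAI channel inhibitor given with CPA to the remaining 4 libraries, was present in either group. All cells were grown in DMEM with serum and antibiotics, and no vehicle control is described for the untreated cells. The comparison asks what emptying the calcium stores did to gene expression. HSC-3 is a single line. The labels do not state whether replicates are independent cultures, so the p-values speak only of the variation among these libraries, part of which may be technical.

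CPA blocks SERCA, the pump that moves calcium from the cytosol into the endoplasmic reticulum (ER). When the store empties, STIM proteins in the ER membrane sense the loss and open ORAI channels in the plasma membrane, and the calcium that enters can act through calcineurin and NFAT and through calmodulin kinases and CREB. Folding enzymes of the ER need calcium, and an empty store is a standard way to set off the unfolded protein response, in which the sensors PERK, IRE1 and ATF6 raise chaperones, degradation factors and the transcription factors ATF4 and CHOP. In oral squamous carcinoma, calcium entry has been studied for its links to invasion and to the release of mediators that cause pain.

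Reads in these libraries lay mostly on the strand opposite to the annotated gene. A coding gene was therefore read at a feature, usually an antisense or neighbouring gene, lying across exons of this coding gene, and of no other, on the opposite strand, with a minimum overlap of 30 bases. Where several features did so, the feature with the most reads was used, and 3958 coding genes could be read in this way. A feature's own transcript and that of the gene opposite it cannot be told apart in such a count. Each value below that is not marked as a gene's own count is a reading at an opposite feature. A gene's own count can miss most of its reads. GAPDH had a mean of 25.3 CPM by own count and 35000 CPM at its opposite feature in untreated libraries. An own count that was not called thus does not show that the gene was unchanged. Values are given as CPM (read counts relative to the TMM-scaled library size), for replicates 1 to 4 of each group in order. In these 8 libraries 1 CPM stood for 3.2 to 5 reads. A gene is said to have risen or fallen only where edgeR's quasi-likelihood test gave a Benjamini-Hochberg adjusted p under 0.05 and the change was at least 1.5-fold. Log2 fold changes are CPA minus untreated, with the standard error (SE).

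The 8 libraries held between 2819486 and 4428584 reads in genes, out of 69.1 M to 108.0 M alignments that the files count as unique, and 14911 features were tested. These file totals are above the trimmed reads per sample that the labels state, so what 1 counted unit is (a read or a pair) is not settled here. Mitochondrial ribosomal RNA took 11.72%, 1.14%, 39.63% and 11.85% of gene reads in the untreated and 9.43%, 0.17%, 1.09% and 2.21% in the CPA libraries. The means were 16.1% ± 16.5 and 3.22% ± 4.22 (SD, n = 4), a difference of -12.9 percentage points. An exact two-sided permutation test gave p = 0.0857, with 0.0286 the smallest p that 70 splits allow. This result does not show that the shares were alike. The difference in mitochondrial ribosomal RNA share was -5.01 points without untreated replicate 3. In a fit without the mitochondrial genes, all 101 calls for named genes that remained were kept. Any other part of this share in the gene results was not tested. Without the 3 libraries of the series richest in non-unique alignments, untreated replicate 3 among them, 236 of the 269 rises and 115 of the 156 falls were called again. Of 20 squamous epithelial markers, 7 were read at opposite features and summed to between 8500 and 9070 CPM in untreated and 8710 and 9650 CPM in CPA libraries. By own counts, the 20 squamous markers summed to between 7150 and 7700 CPM untreated and 7210 and 8260 CPM with CPA. By own counts as well, 5 of 14 fibroblast, 6 of 15 immune and 2 of 11 endothelial markers had no read in any of the 8 libraries. The fibroblast own-count sums ran from 24.7 to 28.7 CPM untreated and 17.5 to 38.6 CPM with CPA. The immune sums ran from 16.2 to 27.8 and 12.7 to 18.6 CPM, and the endothelial sums from 32.5 to 41.6 and 31.7 to 41.5 CPM. At opposite features, 2 fibroblast markers were read, with sums of 47.2 to 57.8 CPM untreated and 48.8 to 50.3 CPM with CPA. No immune or endothelial marker was read there, so low own counts do not show that these cell types were absent. In such bulk samples, fewer cells of a type and less RNA per cell cannot be told apart.

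CPA raised 269 features (1.8% of those tested) and lowered 156 (1.05%), 425 in all (2.85%). The 4 CPA libraries lay above all untreated ones for 5.7% of features and below them for 4.65%. Among the 3958 genes read at opposite features, 136 rose (3.44%) and 52 fell (1.31%), together 4.75%, and the median log2 fold change over all of them was 0.03. The rises were larger than the falls on the log2 scale, with a median of 0.99 against -0.80. At least 2-fold changes were found for 65 of the 136 risen and 11 of the 52 fallen genes, and at least 4-fold changes for 17 and 0. The 4 CPA libraries all lay above the 4 untreated ones for 131 of the 136 rises, while 9.85% of all genes read did so. They lay below for 46 of the 52 falls, against 5.99% of all genes read. In each of the 12 fits that left out 1 library of the series, 93 of the rises and 30 of the falls were called.

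**Figure D1:**
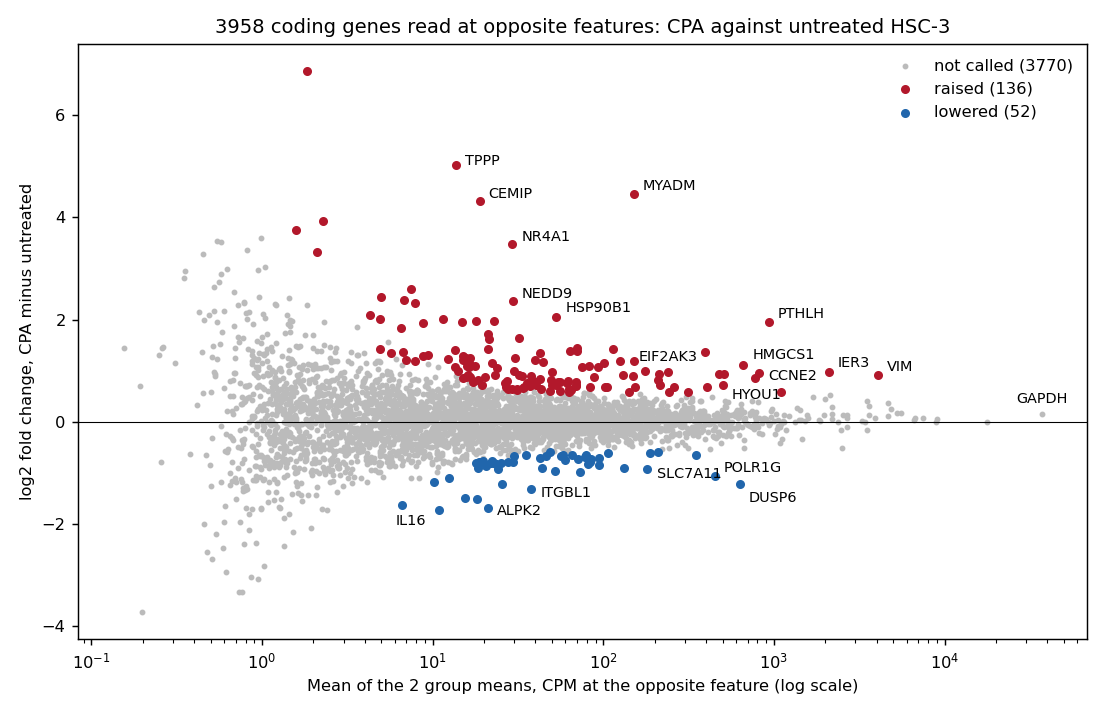
Each point is 1 of the 3958 coding genes read at opposite features, with the mean of the 2 group means in CPM (x axis, log scale) against the log2 fold change of CPA minus untreated (y axis). The 136 risen genes are red, the 52 fallen genes blue and the others grey. The red points reach further from 0 than the blue ones. The highest red point is CCL3, named here after its values had been seen, which had 0 reads in all untreated libraries, so its height depends on the prior count of the fit.

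The largest rises included TPPP, MYADM, CEMIP and NR4A1, each above a log2 fold change of 3. MYADM, a membrane protein of lipid rafts, had 15.4, 11.4, 13.4 and 12 CPM in untreated and 255, 299, 315 and 283 CPM in CPA libraries. It was read at an antisense RNA, ENSG00000232220 (chromosome 19, 53874626 to 53876049, GRCh38), that overlaps 423 bases of MYADM after its coding sequence. The groups lay far apart, with a log2 fold change of 4.46 ± 0.15 and an adjusted p of 3.87e-25. CEMIP, a protein of hyaluronan breakdown, went from 2.08, 1.2, 2.5 and 1.46 CPM to 32.5, 39.5, 39.5 and 31.9 CPM. TPPP, which bundles microtubules, had 2.08, 0, 0.313 and 0.586 CPM without and 21.9, 30.7, 30.9 and 22.7 CPM with CPA. Its untreated level was close to no reads, so its log2 fold change of 5.03 ± 0.45 rests on few of them. The own count of TPPP was larger, at 56.2 against 13.6 CPM on average over the 8 libraries, and was not called (-0.41, adjusted p = 0.113). NEDD9, a scaffold of focal adhesions known for its part in cell migration, rose from 8.54, 10.2, 9.38 and 10.3 CPM to 54.7, 50.2, 50.8 and 41.4 CPM (2.36 ± 0.20, adjusted p = 8.71e-12). The reading of NEDD9 rests on an overlap of 53 bases of coding sequence with a long noncoding RNA on chromosome 6. SYNE1, a nesprin that ties the nuclear envelope to actin, rose from 3.12, 1.8, 0.625 and 2.93 CPM to 12.9, 11.2, 11.1 and 10.4 CPM.

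PTHLH had the lowest adjusted p after MYADM among the genes read. It encodes parathyroid hormone-related protein, a secreted hormone through which squamous tumours can raise blood calcium. The untreated libraries had 360, 382, 407 and 385 CPM and the CPA libraries 1380, 1440, 1610 and 1510 CPM. All PTHLH values with CPA lay above all those without it, with means of 383 ± 19.2 and 1490 ± 98.9 CPM (SD, n = 4) and a log2 fold change of 1.96 ± 0.0736 (adjusted p = 1.31e-23). PTHLH was read at ENSG00000257042 (chromosome 12, 27958517 to 27969813, plus strand), which overlaps 353 exon bases of PTHLH on the minus strand, 130 of them coding. By its own count PTHLH was not called (0.65, adjusted p = 0.0926). No promoter sequence of PTHLH was used here.

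**Figure D2:**
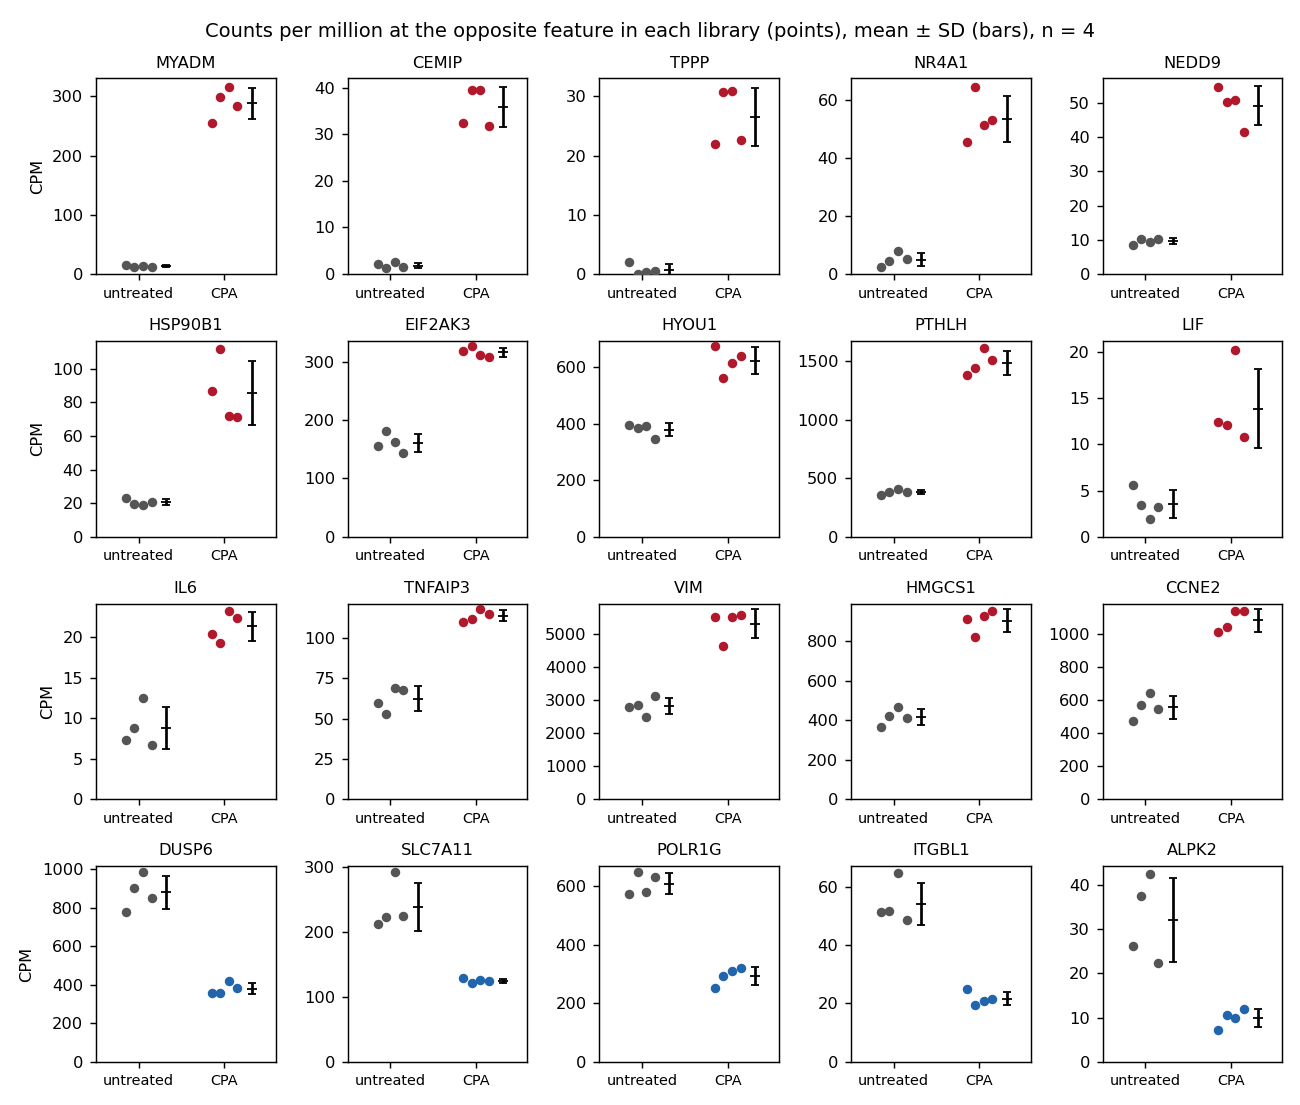
CPM at the opposite feature in each library for 20 genes, with 1 point for each of the 4 untreated (grey) and 4 CPA libraries (red where the gene rose, blue where it fell) and bars for the mean ± SD. The y axes start at 0 and differ between panels. In all 20 panels the CPA points lie on 1 side of the untreated points, above them for 15 genes and below them for DUSP6, SLC7A11, POLR1G, ITGBL1 and ALPK2.

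For every list below, the counts stand beside 3.44% risen and 1.31% fallen among all genes read, and some genes belong to several lists. Of the 30 chaperones and folding enzymes in the list, 14 were read at opposite features. HSP90B1, HYOU1 and TXNDC11 rose, none fell, and the list's median log2 fold change was 0.47 beside 0.03 for all genes read. HSP90B1, the ER chaperone GRP94, had 23.1, 19.6, 18.8 and 20.8 CPM in untreated and 86.7, 112, 72 and 71.4 CPM in CPA libraries, at UQCC6 on chromosome 12. The groups did not overlap (2.05 ± 0.14, adjusted p = 2.4e-14). The own count of HSP90B1 averaged 57 CPM over the 8 libraries, against 53.1 CPM at UQCC6, and was not called (0.03, adjusted p = 0.963). HYOU1, a chaperone that exchanges the nucleotide of BiP, had 395, 383, 391 and 347 CPM before and 676, 562, 615 and 638 CPM after CPA (0.72 ± 0.0742, adjusted p = 1.65e-09). TXNDC11, a redox protein of the ER, rose by 0.75 ± 0.18, a call that ended without untreated replicate 1. At less than 1.5-fold, a further 4 folding genes passed the adjusted p alone. The calcium-binding chaperone CALR went from 1440, 1570, 1410 and 1220 CPM to 2020, 1900, 2040 and 1930 CPM (0.48 ± 0.0704, adjusted p = 4.16e-06). The protein disulfide isomerases P4HB and PDIA6 had log2 fold changes of 0.45 and 0.41, and the prolyl isomerase PPIB 0.31. Together with the 3 risen genes these made 7 of 14 with adjusted p under 0.05 at any fold and CPA above untreated in all libraries. Over all genes read, 5.68% were higher and 2.91% lower by the same adjusted p. SIL1 (0.07), ERO1A (0.24) and CRELD2 (-0.37) did not pass the test, and FKBP14 lay lower in all CPA libraries without passing it (-0.60, adjusted p = 0.28). By own counts 29 members of the list were tested, 1 rose, 1 fell and the median was 0.05.

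Of the sensors and factors of ER stress, 9 of 22 were read and 2 rose. EIF2AK3, the gene of the sensor kinase PERK, had 156, 181, 163 and 143 CPM in untreated and 319, 327, 312 and 309 CPM in CPA libraries. It was read at ENSG00000225420 (chromosome 2, 88538720 to 88575610), whose overlap of 781 bases lies wholly in the PERK coding sequence. All CPA libraries lay above all untreated ones, and the log2 fold change was 0.98 ± 0.0812 (adjusted p = 3.66e-12). BHLHA15, known as MIST1, a transcription factor of secretory cells and a target of XBP1, rose from 4.79, 7.6, 5.94 and 5.57 CPM to 31.2, 18.4, 25.4 and 19.4 CPM (1.96 ± 0.20). CREB3 (0.50, adjusted p = 0.000918) and NFE2L1 (0.41, adjusted p = 0.000603), both made as ER membrane proteins, were higher at less than 1.5-fold. The other eIF2-alpha kinases EIF2AK1 (-0.02) and EIF2AK2 (-0.03) and the antioxidant factor NFE2L2 (0.05) did not pass the test.

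Of 25 degradation genes, 11 were read and SYVN1 rose, with a list median of 0.18. SYVN1 is HRD1, the ubiquitin ligase of ER-associated degradation, and was read at the coding gene MRPL49. It had 17.5, 15.6, 17.8 and 10.8 CPM without and 26.8, 45.6, 22.3 and 33.7 CPM with CPA (1.05 ± 0.20). The own count of SYVN1 was larger, at 59.8 against 23.8 CPM on average over the 8 libraries, and was not called (0.06, adjusted p = 0.891). EDEM1 (0.48, adjusted p = 0.0434), DERL1 (0.32, adjusted p = 0.028) and OS9 (0.26, adjusted p = 0.032), which select or move misfolded proteins, passed the adjusted p at less than 1.5-fold. Of 62 genes of the translocon, glycosylation and ER transport, 18 were read and none was called, with a median of 0.16. Only ALG12 (0.34) and SPCS3 (0.27) passed the adjusted p in it, while COPA (-0.09), SEC31A (-0.09) and RPN2 (0.10) did not. SEC16A, which organises ER exit sites and stood outside this list, rose from 10.4, 11.8, 15.3 and 18.2 CPM to 22.7, 36.3, 30.5 and 32.2 CPM and was picked here after its values had been seen.

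**Figure D3:**
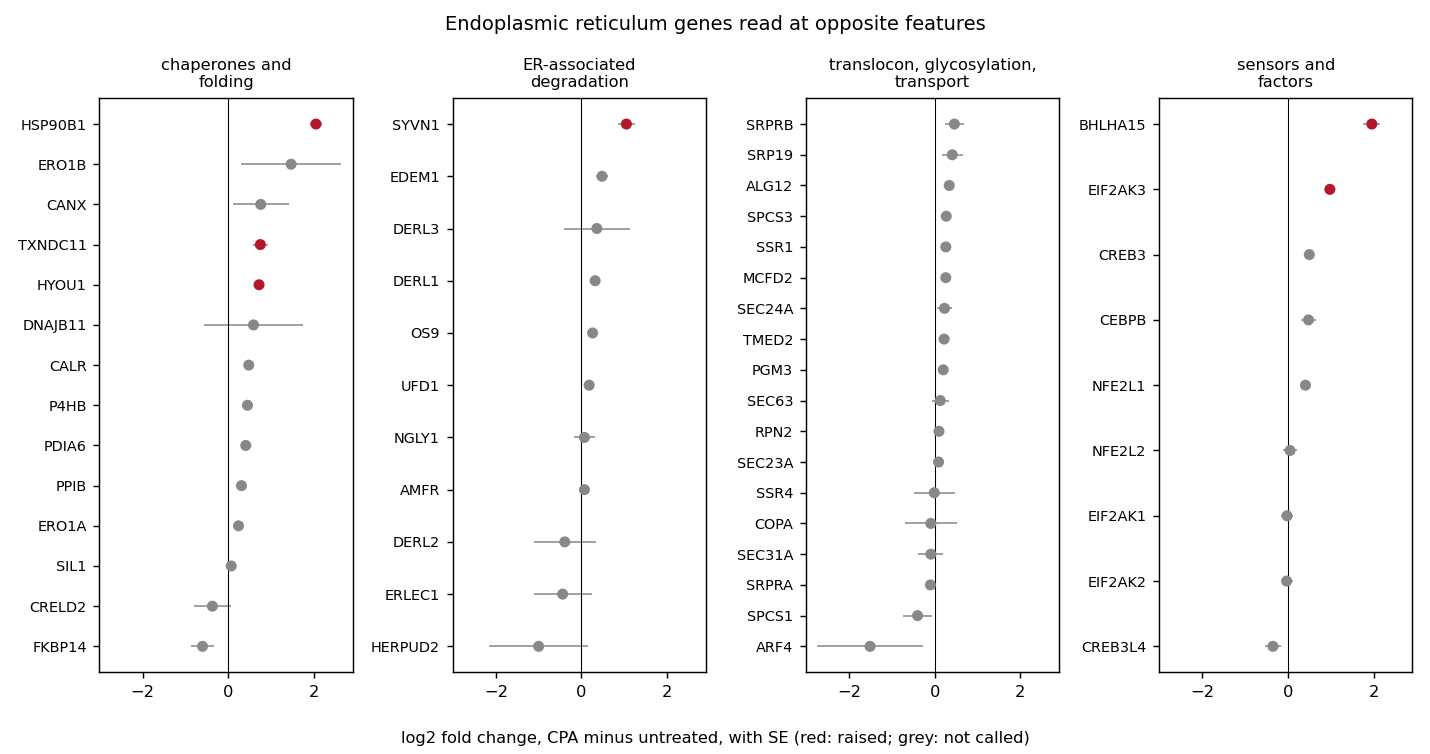
Log2 fold change of CPA minus untreated with its SE (x axes) for the members of 4 ER lists read at opposite features, sorted within each list, with risen genes in red. The 6 red points are HSP90B1, TXNDC11, HYOU1, SYVN1, BHLHA15 and EIF2AK3, and no member of these lists fell.

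The promoters of the risen genes were searched for elements of the unfolded protein response, in RefSeq windows (GRCh38.p14) from 250 bases before to 50 bases after the gene start. Windows were at hand for 111 of the 136 risen and 43 of the 52 fallen genes. Sites of 4 risen genes are shown, with that of CALR beside them, 5′ to 3′ on the gene's strand and with the match in capitals. The ERSE, the ER stress element bound by ATF6 and NF-Y, was searched as CCAAT and CCACG with 9 bases of any kind between them, and the core of the UPRE, the element bound by XBP1 and ATF6, as TGACGTGG, each on both strands. HSP90B1 held the ERSE at 194 to 176 bases before its start, and again, on the other strand, at 89 to 71 bases before it. CALR held it on the other strand at 225 to 207 bases before its start. For HYOU1 and FLNC the bases before any annotated exon are shown, and for the others 30 bases around the match.
HSP90B1 (chr12:103930211-103930240, plus strand): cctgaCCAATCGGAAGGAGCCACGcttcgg
HSP90B1 (chr12:103930316-103930345, plus strand): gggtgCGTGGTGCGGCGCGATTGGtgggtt
CALR (chr19:12938379-12938408, plus strand): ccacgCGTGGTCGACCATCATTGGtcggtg
HYOU1 (chr11:119057228-119057455, minus strand): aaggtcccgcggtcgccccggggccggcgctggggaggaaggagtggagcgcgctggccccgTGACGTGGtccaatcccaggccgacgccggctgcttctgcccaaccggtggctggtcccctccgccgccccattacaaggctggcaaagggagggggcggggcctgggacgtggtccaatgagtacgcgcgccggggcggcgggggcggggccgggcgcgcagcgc
FLNC (chr7:128830156-128830405, plus strand): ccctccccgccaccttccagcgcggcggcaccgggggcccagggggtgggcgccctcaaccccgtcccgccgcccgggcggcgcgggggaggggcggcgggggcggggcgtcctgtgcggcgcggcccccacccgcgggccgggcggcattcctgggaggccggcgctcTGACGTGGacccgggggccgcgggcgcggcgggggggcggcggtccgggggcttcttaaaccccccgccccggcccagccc
COQ10A (chr12:56266886-56266915, plus strand): tggcaacagcgTGACGTGGgggtaccgaga

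The UPRE core was found in 5 of the 111 risen windows (4.5%), those of COQ10A, FLNC, HYOU1, SEC16A and TXNDC11. It was in 31 of 3206 windows of all genes read (0.967%), in 132 of 15843 windows of all coding genes (0.833%) and in none of the 43 fallen ones. The ERSE was in 1 risen window (0.901%), that of HSP90B1, in 0.218% of windows of genes read and in 0.12% of all coding windows. The other motifs are given as shares only, of risen windows, of windows of genes read and of all coding windows in that order. The NFAT core GGAAAA was in 14.4%, 20.3% and 21.8%, AP-1 (TGANTCA) in 5.41%, 4.59% and 5.75%, and the CRE (TGACGTCA) in 2.7%, 3.31% and 2.59%. The core TGACG, which is part of the CRE and of the UPRE core, was in 29.7%, 34% and 29.5%. The sterol element TCACNCCAC was in 1.8%, 0.749% and 1.17%, and the C/EBP-ATF site TGATGNAAN in 2.7%, 1.9% and 2.53%. The CArG box of SRF was in 1.8%, 1.25% and 1.21%, and the E-box CACGTG in 10.8%, 10.1% and 8.88%. A match is a description of the letters and shows no binding.

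**Figure D4:**
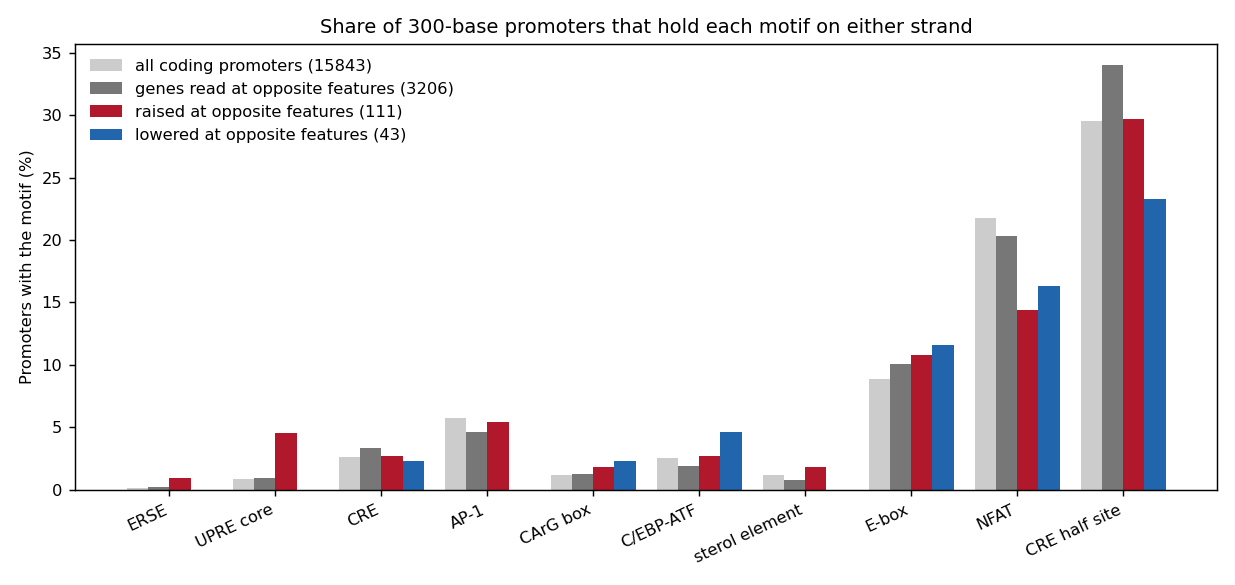
Percentage of promoter windows of 300 bases that hold each motif on either strand (y axis), for all coding genes, for all genes read at opposite features and for the risen and fallen genes among them. The red bar of the UPRE core stands at 4.5% beside 0.833% of all coding windows, from 5 windows.

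CHOP, encoded by DDIT3, could not be read at a feature of its own. The MARS1 gene (chromosome 12, 57475445 to 57517569) overlaps exons of DDIT3 by 355 bases, 193 of them coding, and exons of ARHGAP9 by 519 bases. Its count was 210, 226, 209 and 208 CPM in untreated and 795, 676, 699 and 689 CPM in CPA libraries. The groups did not overlap, and the log2 fold change was 1.74 ± 0.0724 (adjusted p = 4.13e-22). Transcripts of MARS1, DDIT3 and ARHGAP9 cannot be told apart in this count. The own count of DDIT3 was 133, 140, 148 and 96.1 CPM without and 112, 137, 126 and 125 CPM with CPA and was not called (-0.05). Of 47 ATF4 and CHOP targets, 15 were read, with a median of -0.14. VLDLR, a lipoprotein receptor, rose from 13.7, 8, 10 and 13.8 CPM to 27.4, 21.4, 25.8 and 22.4 CPM (1.09 ± 0.22). The cystine transporter SLC7A11 fell, from 212, 223, 293 and 225 CPM to 129, 121, 126 and 124 CPM (-0.93 ± 0.0966). The amino acid transporters SLC7A5 (-0.35, adjusted p = 0.00115) and SLC1A5 (-0.42, adjusted p = 3.38e-05) were lower at less than 1.5-fold. The serine and folate enzymes SHMT2 (-0.08) and MTHFD2 (0.05) and the tRNA synthetase WARS1 (0.21) did not pass the test. By own counts, none of ATF4 (0.01), TRIB3 (-0.61) and XBP1 (-0.43) was called, and ATF3 had too few reads to be tested. The own count of HSPA5, which encodes the chaperone BiP, was 8.12, 8.4, 5.31 and 13.5 CPM without and 17.8, 9.07, 4.3 and 8.2 CPM with CPA (0.14, adjusted p = 0.9). With reads mostly on the opposite strand, these own counts do not show whether DDIT3, ATF4, TRIB3, XBP1 or HSPA5 changed.

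None of the 13 calcium entry and handling genes read at opposite features was called, of 44 in the list, and their median log2 fold change was 0.19. SARAF, an ER protein that restrains store-operated entry, was higher at less than 1.5-fold, from 145 to 200 CPM on average (0.46, adjusted p = 0.00174). STIM1 (2.95 and 4.7 CPM) and ORAI2 (0.95 and 1.49 CPM) had low counts and were not called. Whether a difference of their size could be detected at such counts was not tested. The inositol trisphosphate receptor ITPR3 (0.16) and the plasma membrane pump ATP2B1 (0.61, adjusted p = 0.133) did not pass the test. By own counts, neither ORAI1 (-0.59), ORAI2 (0.01), STIM1 (-0.35) nor ATP2A2, the SERCA gene itself (0.53, adjusted p = 0.451), was called, and ORAI3 and STIM2 had too few reads to be tested. Such own counts do not show whether these genes changed, as reads lay mostly on the opposite strand.

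Of 38 immediate early genes, which answer calcium and growth signals quickly, 10 were read and NR4A1, IER3 and PLK3 rose. NR4A1, a nuclear receptor induced through NFAT and CREB among others, had 2.5, 4.4, 7.81 and 5.27 CPM in untreated and 45.4, 64.4, 51.4 and 53.3 CPM in CPA libraries. Its antisense feature overlaps 754 bases of the end of the gene, 192 of them coding, and the log2 fold change was 3.47 ± 0.25 (adjusted p = 8.81e-14). IER3, a regulator of cell survival, went from 1400, 1430, 1530 and 1320 CPM to 2850, 2620, 2950 and 2740 CPM (0.97 ± 0.0667). The kinase PLK3 rose from 12.1, 9.8, 11.6 and 8.79 CPM to 15, 26.7, 23.5 and 25.7 CPM (1.11 ± 0.24). Its reading rests on an overlap of 98 bases with the coding gene DYNLT4. JUNB (0.29), IER2 (-0.20), PHLDA1 (0.21) and MCL1 (-0.06) did not pass the test, and the list's median was 0.14. The own counts of FOS and EGR1 were 0 in all 8 libraries, and those of NR4A1 were 0 as well. Since NR4A1 rose at its opposite feature, own counts of 0 do not show that FOS and EGR1 were silent.

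The NFAT and calcineurin list had 8 of 27 members read and a median of 0.46. NR4A1, LIF and PPP3CC rose in it. Of these, NR4A1 is also in the immediate early and CREB lists, and LIF in the cytokine and pain lists. PPP3CC, a catalytic subunit of calcineurin, had 15, 14.8, 20.9 and 13.8 CPM without and 28.1, 36.7, 28 and 27.4 CPM with CPA (0.91 ± 0.20). The calcineurin subunits PPP3R1 (0.25) and PPP3CA (-0.73, at about 1 CPM) and the factor NFATC3 (0.08) did not pass the test, and RCAN1 had too few reads of its own. Of 25 CREB pathway genes and targets, 9 were read, NR4A1 and PER2 rose and the median was 0.55. CREB1 itself was at -0.28 (adjusted p = 0.0951). PER2 also belongs to the clock genes, of which 11 of 23 were read and BHLHE40, PER2 and CRY1 rose (median 0.33). BHLHE40, a repressor of the clock, went from 1.67, 1.6, 2.19 and 5.27 CPM to 12.4, 10.5, 15.1 and 14 CPM (2.32 ± 0.40). PER2 had 5, 5.4, 2.81 and 5.86 CPM against 12.4, 11.4, 9.21 and 11 CPM. These low counts left the PER2 call (1.19 ± 0.32) dependent on untreated replicates 1 and 3 and CPA replicate 1, since it ended without any of them. The CRY1 call (0.82 ± 0.21), at an overlap of 94 bases, ended without untreated replicate 1 or 2 or CPA replicate 3 or 4. BHLHE41, the paralog of BHLHE40, had 1.23 ± 0.40 and was not called (adjusted p = 0.0728).

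IL6, LIF, TNFAIP3 and PTX3 were the inflammatory and pain-related list members that rose at opposite features. IL6, a cytokine of inflammation, had 7.29, 8.8, 12.5 and 6.74 CPM in untreated and 20.4, 19.3, 23.3 and 22.4 CPM in CPA libraries (1.29 ± 0.22, adjusted p = 7.57e-05). LIF, a cytokine of the same family, had 5.62, 3.4, 1.88 and 3.22 CPM without and 12.4, 12.1, 20.3 and 10.8 CPM with CPA (1.94 ± 0.35), at an overlap of 83 bases around the start of the gene. In both genes the groups did not overlap at the opposite feature. The own count of IL6 was in the other direction, with 3.33, 4.6, 12.5 and 6.74 CPM without and 3.35, 2.79, 2.66 and 0.648 CPM with CPA, and was not called (-1.49 ± 0.47, adjusted p = 0.0582), though the call changed without untreated replicate 1 or without replicate 1 of CPA with synta-66. The NF-kB list had 5 of 34 members read, of which TNFAIP3, IL6 and PTX3 rose (median 0.77). TNFAIP3, the A20 inhibitor of NF-kB, went from 59.7, 52.8, 69.1 and 67.7 CPM to 110, 112, 118 and 115 CPM (0.87 ± 0.12), and the pentraxin PTX3 rose by 0.77 ± 0.14. The TNFAIP3 reading rests on an overlap of 95 bases, and that of PTX3 on 71 bases with the coding gene VEPH1. The manganese superoxide dismutase gene SOD2 (-0.19) and IRF1 (-0.39) did not pass the test. Of 46 cytokines, chemokines and receptors, 12 were read, and besides IL6 and LIF the calls at opposite features were falls at the reading of IL16, which cannot be told apart from STARD5 as given below, and of IL20RB, a receptor subunit for IL-20 cytokines (27.7, 21.4, 23.4 and 24 CPM against 14.7, 8.37, 14.7 and 13.8 CPM). The IL20RB reading rests on an overlap of 37 bases. The median of the cytokine list was -0.09. Of 29 pain mediators, 4 were read and IL6 and LIF rose, while BDNF (0.55, adjusted p = 0.0991) and the trypsin gene PRSS3 (-0.30) were not called (median 0.92). ICAM1, an adhesion molecule, shares its opposite feature ICAM4-AS1 with ICAM4, and that feature rose from 293, 310, 381 and 336 CPM to 786, 726, 842 and 867 CPM (1.29 ± 0.0812). The pain channel TRPA1 shares MSC-AS1 with the factor gene MSC. MSC-AS1 rose from 16.2, 22.2, 21.9 and 21.1 CPM to 95.2, 76, 91.5 and 76.8 CPM, and the own count of TRPA1 from 22.1, 16, 20.6 and 23.7 CPM to 39.2, 48.4, 35 and 38.9 CPM (0.97 ± 0.17). With reads mostly on the opposite strand, neither count shows that TRPA1 itself changed.

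Of 43 matrix protease and invasion genes, 14 were read, 4 rose and none fell (median 0.25). CEMIP and NEDD9 are described above. LOX, the enzyme that cross-links collagen, had 9.58, 10.4, 10.6 and 11.1 CPM in untreated and 28.1, 38.1, 30.7 and 31.3 CPM in CPA libraries (1.62 ± 0.20). The hyaluronan receptor CD44 had 845, 868, 998 and 796 CPM against 1230, 1510, 1280 and 1270 CPM. Its groups did not overlap, but its change of 0.59 ± 0.0744 stood at the 1.5-fold minimum, and the call ended without untreated replicate 1, 2 or 4 or CPA replicate 2. The integrin ITGA5 (0.45, adjusted p = 0.0136) and the urokinase gene PLAU (0.25, adjusted p = 0.0476) were higher at less than 1.5-fold, and ITGA6 (0.13), ADAM17 (0.19) and TIMP2 (0.16) did not pass the test. LOX and ANKRD37 were the rises among 7 of 30 angiogenesis and hypoxia genes read (median 0.30). ANKRD37, read at the coding gene UFSP2, went from 23.3, 30.4, 27.8 and 13.5 CPM to 63, 66.3, 56.1 and 59.1 CPM, whereas VEGFA (0.30, adjusted p = 0.16) and HIF1A (0.08) were not called. The own count of ANKRD37 was larger, at 121 against 42.4 CPM on average over the 8 libraries, and was not called (0.30, adjusted p = 0.0706).

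The cytoskeleton and SRF target list was the longest one read, with 26 of 45 members, of which 5 rose and none fell (median 0.19). They were TPPP, MYADM, TUBA1A, VIM and FLNC. VIM, the intermediate filament of mesenchymal cells, was measured at 2 features over its exons. VIM-AS1 had 2810, 2860, 2510 and 3120 CPM in untreated and 5530, 4660, 5530 and 5590 CPM in CPA libraries (0.92 ± 0.0758, adjusted p = 3.35e-12). The other feature, ENSG00000234961, had 2660, 2920, 2720 and 2660 CPM against 4820, 5250, 5620 and 5600 CPM (0.96 ± 0.0693). The actin cross-linker FLNC rose from 52.5, 59.8, 50.6 and 47.2 CPM to 80.8, 103, 87.6 and 74.7 CPM (0.72 ± 0.12), and its UPRE core stands 81 to 74 bases before its start. TUBA1A was read at TUBA1C, a near-identical tubulin gene, so its change of 1.24 ± 0.22 is uncertain, and its groups overlapped through untreated replicate 4 (30.5 CPM) and CPA replicate 4 (29.4 CPM). TPM4 (0.49, adjusted p = 0.000318) and ACTN4 (0.30, adjusted p = 0.0155) were higher at less than 1.5-fold, and TUBB (-0.01), CFL1 (0.14), PFN1 (0.11) and KRT18 (0.08) did not pass the test. MICAL2, an enzyme that oxidises actin, was no member of the list and was picked after its values had been seen. It rose from 331, 356, 353 and 366 CPM to 656, 678, 666 and 687 CPM. RHOF, a small GTPase of filopodia, was picked in the same way and rose from 249, 223, 220 and 187 CPM to 537, 531, 620 and 591 CPM at TMEM120B, while its other 2 opposite features had log2 fold changes of -0.19 and -0.13. Of 28 YAP and TEAD targets, 10 were read and only WWTR1, the gene of the YAP paralog TAZ, rose (0.69 ± 0.12, list median -0.15). None of the 6 TGF-beta and SMAD feedback genes read of 24 was called (median -0.03). Of 32 basal epithelium and EMT genes, 13 were read and VIM and OVOL1 rose (median 0.08). OVOL1, a repressor that keeps epithelial identity, went from 36, 47.2, 39.4 and 31.6 CPM to 87.2, 98.1, 112 and 107 CPM (1.39 ± 0.15), and was also the rise among 4 of 36 keratinocyte differentiation genes read (median 0.02). E-cadherin (CDH1) was higher at less than 1.5-fold (0.40, adjusted p = 0.0051), and ZEB1 (-0.05), TWIST1 (-0.39) and N-cadherin (CDH2, 0.42) did not pass the test.

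**Figure D5:**
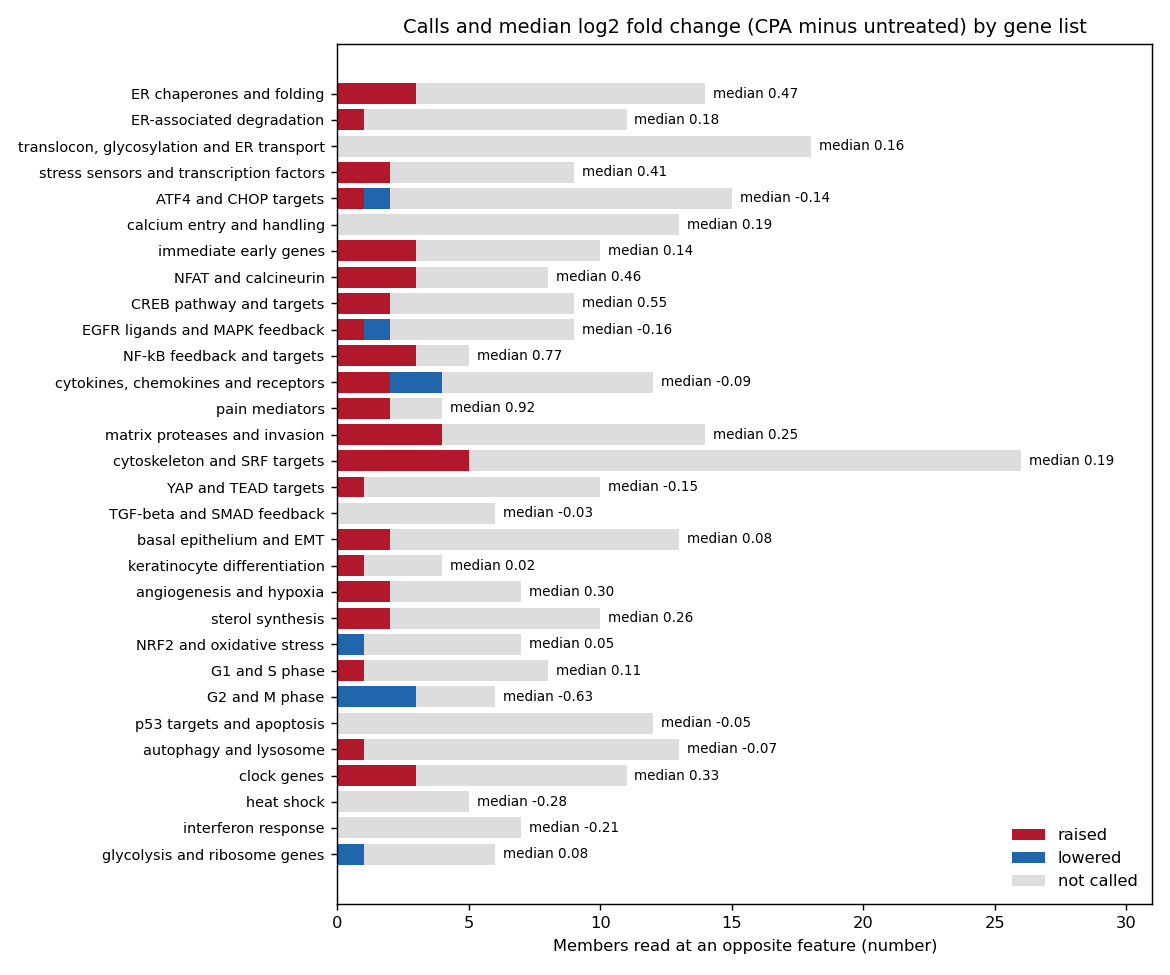
Number of members read at an opposite feature (x axis) for 30 gene lists, with those that rose in red, those that fell in blue and those not called in grey, and the median log2 fold change of the members read beside each bar. The largest number of rises is 5 of 26, in the cytoskeleton list, and the largest number of falls is 3 of 6, in the G2 and M phase list.

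HMGCS1, the synthase of the sterol pathway, had 367, 420, 467 and 410 CPM in untreated and 911, 822, 929 and 953 CPM in CPA libraries (1.12 ± 0.0776, adjusted p = 1.86e-14), at a feature that overlaps 2497 bases after its coding sequence. It was among 10 of 32 sterol genes read, of which STARD5 also rose (median 0.26). STARD5 and IL16 lie opposite each other, and each is read at the other. The IL16 feature rose from 122, 125, 120 and 103 CPM to 248, 230, 221 and 238 CPM, and the STARD5 feature fell from 14.6, 18.2, 16.6 and 17.3 CPM to 3.87, 7.91, 3.89 and 4.32 CPM. Which gene moved in which direction cannot be told apart from these 2 counts. Of 28 NRF2 and oxidative stress genes, 7 were read, SLC7A11 fell, GCLC was at 0.58 (adjusted p = 0.000318) just under the 1.5-fold minimum, and the median was 0.05. Of 37 autophagy and lysosome genes, 13 were read and WIPI1 rose (1.20 ± 0.31), a call that ended without untreated replicate 2 or CPA replicate 4, and the list's median was -0.07. The autophagy receptor SQSTM1 was higher at less than 1.5-fold (0.37, adjusted p = 0.000648). Among 6 of 31 glycolysis and ribosome genes read, RPL5 fell (-0.64 ± 0.12) and GAPDH had 0.16 (median 0.08). No heat shock gene was called of 5 read of 22 (median -0.28), and no interferon response gene of 7 read of 36 (median -0.21).

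Cell cycle genes moved in both directions. Of 33 G1 and S phase genes, 8 were read and CCNE2, a cyclin that drives entry into S phase, rose from 471, 568, 642 and 546 CPM to 1010, 1040, 1140 and 1140 CPM (0.96 ± 0.0809, list median 0.11). Of 38 G2 and M phase genes, 6 were read, 3 fell and the median was -0.63. HMMR, a spindle protein, had 67.2, 71.2, 67.8 and 69.4 CPM in untreated and 45.2, 44.4, 40.1 and 44 CPM in CPA libraries. The mitotic kinase PLK1 had 76, 77.6, 89.1 and 75.3 CPM against 53.2, 43.9, 55.5 and 50.7 CPM, and cyclin A2 (CCNA2) 177, 196, 277 and 265 CPM against 133, 163, 154 and 146 CPM. The last 2 calls stood near the 1.5-fold minimum: that of PLK1 (-0.64) ended without CPA replicate 2, and that of CCNA2 (-0.61) without untreated replicate 3 or 4 or CPA replicate 1. KIF20A (-0.38) and ANLN (-0.25) lay lower in all CPA libraries but did not pass the test. Of 30 genes of apoptosis and the DNA damage response, 12 were read and none was called (median -0.05). The survival gene BCL2L1 (-0.52, adjusted p = 3.48e-06) was lower at less than 1.5-fold, while MDM2 (-0.04) did not pass the test.

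DUSP6 led the falls by adjusted p. It encodes the phosphatase that switches off ERK and is itself induced by ERK signalling. It had 779, 904, 984 and 853 CPM in untreated and 359, 358, 421 and 382 CPM in CPA libraries, and the groups did not overlap (-1.21 ± 0.0793, adjusted p = 3.46e-15). Of 38 EGFR ligand and MAPK feedback genes, 9 were read and the median was -0.16. EGFR (-0.10), ETV4 (-0.32, adjusted p = 0.272), LRIG1 (-0.34, adjusted p = 0.0527) and CCND1 (-0.16) did not pass the test, and IER3 rose. POLR1G, a subunit of RNA polymerase I, had 574, 649, 582 and 633 CPM without and 252, 292, 310 and 322 CPM with CPA (-1.05 ± 0.0817, adjusted p = 4.48e-13). It was read at ERCC1, a DNA repair gene, over 1593 bases of exon. ITGBL1, an integrin-like secreted protein, went from 51.4, 51.8, 64.7 and 48.6 CPM to 24.8, 19.5, 20.9 and 21.4 CPM (-1.32 ± 0.15). ALPK2, an alpha kinase, went from 26.2, 37.6, 42.5 and 22.3 CPM to 7.23, 10.7, 9.82 and 11.9 CPM (-1.69 ± 0.22). Other falls of this kind were SERTAD4 (-1.63), NUDT6 (-1.5), NKX1-2 (-1.48), PRICKLE1 (-1.21), BLCAP (-0.99), RIF1 (-0.97) and ZNF480 (-0.92). The falls of CAVIN2 (-1.18) and MATR3 (-1.10) were lost in at least 1 of the 12 fits that left out 1 library, CAVIN2 without untreated replicate 1 or CPA replicate 1 and MATR3 without CPA replicate 3. MATR3 is read at SIL1, so its value is also the own count of SIL1. Rises of similar rank not yet described were CSPG4 (2.60), ZCCHC24 (2.01), CPEB2 (1.98) and TMEM50B (1.97). On average over the 8 libraries, own counts were larger for NUDT6 (113 against 18.3 CPM), TMEM50B (151 against 22.9 CPM) and CSPG4 (9.16 against 7.41 CPM). These own counts were not called.

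The gene's own count rarely followed the reading at the opposite feature. Own counts were tested for 140 of the 188 genes called at opposite features, and 4 were called in the same and 3 in the other direction. The own count was the larger of the 2 for 26 of the 140. A second opposite feature was tested for 23 of the called genes, 31 features in all, of which 26 had the same sign, 7 were called in the same direction and 0 in the other. Of 8937 coding genes tested by own counts, 140 rose (1.57%) and 83 fell (0.929%), together 2.5%, and the groups did not overlap for 4.83% above and 4.25% below. The largest rises among those with a mean of at least 5 CPM whose feature is not the reading of another gene were IL17RC (3.14, from 1.04, 1.2, 0.313 and 1.76 CPM to 13.2, 7.44, 9.62 and 9.28 CPM), PARP12 (2.47), BORCS6 (2.26), RABEPK (1.88), PAX8 (1.76) and RNF175 (1.76, lost in 6 of the 12 fits). BORCS6, a subunit of the complex that positions lysosomes, rose at its opposite feature too, from 91, 68.2, 63.1 and 83.5 CPM to 185, 151, 181 and 179 CPM (1.18 ± 0.11). The largest falls were STAMBPL1 (-1.93, lost without untreated replicate 2), DHDDS (-1.69), HRNR (-1.68), ME3 (-1.46, lost in 5 fits), PSG1 (-1.37) and PELP1 (-1.36, lost in 6 fits). Among list members, own counts also rose for, among others, DNAJB9 (0.60, lost in 9 fits), LTBP2 (0.73), AKR1C2 (1.29, lost in 4 fits) and GABARAPL2 (2.10, lost in 3 fits). They fell for HIF1A (-1.33), HK2 (-0.80), FJX1 (-1.17), F3 (-0.78, lost in 7 fits), HMMR (-1.18, lost in 4 fits), CCND1 (-0.72, lost in 3 fits) and SIL1 (-1.10, lost in 1 fit). At opposite features with more reads, HIF1A (0.08) and CCND1 (-0.16) were not called, while HMMR fell (-0.67). A called own count thus does not show that the gene itself changed. HERPUD1, a factor of ER-associated degradation, had 0.208, 0, 0 and 0 CPM of its own in untreated and 4.65, 0.93, 1.43 and 1.3 CPM in CPA libraries and was called (adjusted p = 0.00361).

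Of 6820 tested features with no annotated exon opposite them, 56 rose (0.821%) and 53 fell (0.777%), beside 1.8% and 1.05% of all features. RABEPK, a coding gene, had 3.12, 3.6, 3.75 and 4.69 CPM in untreated and 22.5, 8.6, 10.6 and 14 CPM in CPA libraries, and lies on the other strand 692 bases beyond the 3′ end of HSPA5. The noncoding GHET1 had 0, 0.4, 1.25 and 0.586 CPM without and 12.4, 13.7, 13.5 and 6.91 CPM with CPA, and lies 13630 bases beyond the 3′ end of PDIA4, which encodes an ER disulfide isomerase. Both positions were looked up after the values had been seen. Over all such features, 31 of the 56 risen (55.4%), 27 of the 53 fallen (50.9%) and 3105 of the 6820 tested (45.5%) lay within 50 kb beyond the 3′ end of a coding gene on the other strand. A further rise was found at KCNMA1-AS3 (2.16 ± 0.44, lost in 1 fit), and falls at ENSG00000262681 (-1.79), LINC01547 (-1.74), ENSG00000274718 (-1.74) and ENSG00000228626 (-1.66). ENSG00000280966 (2.07 ± 0.23) and ENSG00000281656 (1.97 ± 0.33) rose too, but were not among these 56 features. LINC01547 had 40.8, 47.4, 39.4 and 36.9 CPM in untreated and 9.55, 5.81, 16.2 and 17.3 CPM in CPA libraries.

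Of 629 features opposite several coding genes, 18 rose (2.86%) and 8 fell (1.27%), beside 1.8% and 1.05% of all features. MARS1, ICAM4-AS1 and MSC-AS1 are given above. HRG-AS1, which overlaps exons of the BiP cochaperone gene DNAJB11 and of HRG, KNG1 and FETUB, had 30.2, 31.8, 36.3 and 22 CPM in untreated and 81.8, 72.5, 71.2 and 83.5 CPM in CPA libraries (1.36 ± 0.13). ALDH1A3-AS1, opposite the retinal dehydrogenase ALDH1A3 and LRRK1, had 1330, 1520, 1480 and 1410 CPM against 2330, 2190, 2280 and 2510 CPM (0.70 ± 0.0727). KIF23-AS1, opposite the cytokinesis motor KIF23 and PAQR5, fell from 131, 135, 129 and 137 CPM to 96.8, 80.2, 80.6 and 87.4 CPM (-0.63 ± 0.10). The most abundant called features that GENCODE 44 does not list were ENSG00000279576, with 8000, 7390, 8400 and 6790 CPM against 11400, 15800, 11800 and 11400 CPM (0.72), and ENSG00000269926, with 3220, 3390, 3510 and 3240 CPM against 5640, 5190, 5890 and 5580 CPM (0.74).

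The mitochondrial genome, counted on its own strand, changed in 2 directions. Of its 15 list members, 4 rose and 2 fell by own counts. The own count of the ATP synthase subunit gene MT-ATP6 went from 35, 28, 35.6 and 33.1 CPM to 52.9, 76, 61.4 and 55.9 CPM (0.91 ± 0.15). That of the cytochrome oxidase subunit gene MT-CO2 went from 85.4, 73.6, 100 and 90.2 CPM to 138, 183, 145 and 147 CPM (0.81 ± 0.12). That of MT-CO3 rose by 0.76 ± 0.10. As reads lay mostly on the strand opposite to the annotated gene, these own counts are not shown to be messenger RNA. The ribosomal RNAs MT-RNR1 (-3.0 ± 0.85, adjusted p = 0.0276) and MT-RNR2 (-2.61 ± 0.80, adjusted p = 0.0485) were called lower with groups that overlapped, and these calls ended in 4 and 6 of the 12 fits that left out 1 library.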

How the data were processed

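The deposited values are raw read counts per gene, 1 file for each library, and the authors did not normalize them. Per the labels' protocols, reads were trimmed with Trimmomatic (0.32, or 0.36 per the submitters' processing notes), aligned to GRCh38 (Ensembl 84) with STAR 2.5.2a and counted with HTSeq 0.6.1p1 as a stranded library. The sources used here name no library kit. The 5 closing rows of each file were left out, leaving 60675 gene rows. Positions come from GENCODE 44 on GRCh38, in which 4117 gene IDs with 8.71% of gene reads had no match.

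The test was edgeR 4.0.16 (R 4.3.3, limma 3.58.1) with TMM scaling, a filter of 5 or more reads in 2 libraries of any group, 1 quasi-likelihood fit of all 12 libraries, and Benjamini-Hochberg adjustment over 14911 features. A call needs adjusted p under 0.05 and 1.5-fold. Standard errors are the log2 fold change divided by the root of the F statistic. Depth limits precision, since 1 CPM is 3.2 to 5 reads, and the p-values cover only the spread between these samples. On simulated data the fit missed most changes of 1.5-fold and 2-fold, so a gene not called may still have changed.

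The members, the 35 gene lists and the rules were chosen with earlier results of these data known, so counts of lists carry no test. Named are the 15 largest rises and falls at opposite features (mean of at least 5 CPM, no overlap), the 6 largest by own counts, up to 5 called members of each list (mean of at least 1 CPM), the 8 most abundant called features, the 4 largest rises and falls at noncoding features with no coding exon opposite, and a set of store, stress and control genes whatever their values. Also tried were upper-quartile and RLE scaling, DESeq2 1.42.0, other filters and call rules, a fit of 2 groups, a replicate block, an overlap of 100 bases, the feature with the longest overlap, and leaving out libraries. Results for a few list members are not reported here.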

Additional observations from a re-analysis of the deposited data

Results flagged for a closer look

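In 15 of 232 groups of 4 libraries (6.47%, where chance gives about 5%), 1 library stood apart from the other 3 by Dixon's test. CPA replicate 2 was such a library in 5 groups and untreated replicate 3 in 4. CPA replicate 2 had 7.91 CPM at the STARD5 feature that reads IL16 (others 3.87 to 4.32), 4660 CPM for VIM (others 5530 to 5590), 36.7 CPM for PPP3CC (others 27.4 to 28.1), 31.2 CPM at KCNMA1-AS3 (others 8.2 to 10.6) and 15800 CPM at ENSG00000279576 (others 11400 to 11800). Untreated replicate 3 had 293 CPM for SLC7A11 (others 212 to 225), 20.9 CPM for PPP3CC (others 13.8 to 15), 89.1 CPM for PLK1 (others 75.3 to 77.6) and 218000 CPM for MT-RNR1 (others 2830 to 36200). BHLHE40 had 5.27 CPM in untreated replicate 4 (others 1.6 to 2.19), and LIF had 20.3 CPM in CPA replicate 3 (others 10.8 to 12.4). MARS1 had 226 CPM in untreated replicate 2 (others 208 to 210). By own counts, HRNR had 6.26 CPM in CPA replicate 4 (others 2.46 to 2.58), and HERPUD1 had 0.208 CPM in untreated replicate 1 (others 0) and 4.65 CPM in CPA replicate 1 (others 0.93 to 1.43). None of the calls for IL16, VIM, PPP3CC, SLC7A11, BHLHE40, LIF, HRNR, MARS1 or HERPUD1 was lost in any of the 12 fits without 1 library. That of KCNMA1-AS3 was lost in 1 fit, that of PLK1 in 1 and that of MT-RNR1 in 4.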

How the results depend on the processing

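None of the 106 named calls reversed direction under the alternatives run. Readings that were not called can change sign without 1 library. With no minimum fold, 261 features fell, and 225 genes rose and 115 fell at opposite features. With a test against the 1.5-fold minimum (glmTreat), 82 features rose and 18 fell, and 46 and 9 genes at opposite features. The stricter rule asks for more than the main call by its construction, and raised the share of rises among calls from 63.3% to 82%. Counts of rises and falls were 305 and 203 with DESeq2, 272 and 157 with RLE scaling, 264 and 170 with edgeR's own filter, and 269 and 132 with the 3 libraries of most non-unique alignments left out, all within 1.5 times of 269 and 156. Without 1 library at a time, 218 to 281 features rose and 125 to 160 fell. Among genes read at opposite features these ranges were 118 to 140 and 46 to 55. The largest shift of the median of all features under another scaling was 0.019 (log2), without the mitochondrial genes. With the replicate number as a block, 283 features rose and 158 fell, and all 106 named calls were kept. Deviations of same-numbered libraries from their group means were hardly shared, with correlations of -0.0161, 0.0269, 0.0226 and 0.0138. Whether such samples were grown or processed together is not shown by these values. DESeq2 kept 102 of the 106 named calls and glmTreat 55. The difference in mitochondrial ribosomal RNA share was -17.8 points without untreated replicate 2 (exact permutation p = 0.0286, two-sided) and ran from -17.8 to -5.01 points without 1 library at a time. The cause was not tested. Depth limits the low readings: 1 CPM is at most 5 reads in a library.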
